A study of Mus musculus with 12 samples.

Results

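The genes described here are 10 mouse genes of the IgE receptors and of mast cells: Fcer1a, Ms4a2, Fcer1g, Fcer2a, Kit, Kitl, Cpa3, Hdc, Alox5 and Alox5ap. They were chosen by name. A peak was counted for a gene when the authors assigned it to that gene's transcript, or when it was called on that gene's identifier. Of the 10 genes, 4 had a peak in at least 1 of the lists and 6 had none. In all, 14988 gene identifiers had a called peak in either list.

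N6-methyladenosine (m6A) is a methyl mark on adenosines of RNA. It was mapped in the lung by MeRIP-seq, in which RNA fragments bound by an m6A antibody (IP) are sequenced beside the unselected fragments (input), and a peak is a stretch where IP exceeds input. Female BALB/c mice, 6 to 8 weeks old, made up both groups. The OVA group was sensitised with ovalbumin and aluminium hydroxide on days 0 and 7, then breathed an aerosol of 3% ovalbumin for 30 minutes daily from day 14 to day 20, as a model of acute allergic asthma. The PBS group received phosphate-buffered saline in place of the ovalbumin mixture and of the aerosol. According to the methods, airways were provoked with methacholine on day 21, and lungs were taken after that test. Each group had 3 mice, with 3 IP and 3 input libraries. The peak list of each group combines its mice: 27292 peaks for OVA and 26102 peaks for PBS. Values of single mice were not used here, so no spread between mice is given and no test between the groups was made. The number of reads behind each peak was not used here.

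IgE binds to mast cells and basophils through a high-affinity receptor built of an alpha chain, a beta chain and a shared gamma chain. When allergen crosslinks the bound IgE, these cells release stored histamine and proteases and make leukotrienes, which narrow the airways. Mast cells depend on the receptor Kit and its ligand, stem cell factor, for their survival, and B cells carry a separate low-affinity IgE receptor.

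OVA lungs had 5 peaks on 4 of the 10 genes, and PBS lungs had 5 peaks on 3 of them. Fcer2a, Kitl and Alox5ap had a peak in both lists, and Kit had a peak in the OVA list and none in the PBS list. No peak was called for Fcer1a, Ms4a2, Fcer1g, Cpa3, Hdc or Alox5. For comparison, 57.3% of the protein-coding RefSeq genes had a called peak in either list, 54.4% for OVA and 52.8% for PBS. Kit is 1 of 4 genes with a peak in either list. Over all called genes with a peak in either list, 10.8% had it in the OVA list alone, and 7.22% in the PBS list alone, where none of the 10 genes fell. With counts this small, the 10 genes cannot be set apart from the rest. A gene without a peak may lack the mark or may have had too few reads for a call, and these cannot be told apart in a list of peaks. In whole lung, fewer cells of a type and less RNA per cell cannot be told apart either.

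The high-affinity IgE receptor had no peak in either list. Fcer1a encodes its alpha chain, which binds IgE, Ms4a2 its beta chain and Fcer1g the gamma chain that it shares with other Fc receptors. No peak of any gene lay within the RefSeq positions of these genes, which are chr1:173221269-173227232 for Fcer1a, chr19:11615517-11623790 for Ms4a2 and chr1:171229572-171234349 for Fcer1g on GRCm38.

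Fcer2a, the low-affinity IgE receptor CD23 of B cells, had 1 OVA peak and 2 PBS peaks. The OVA peak lay at chr8:3682568-3682985 and was 418 bp wide. Its fold enrichment, the authors' ratio of IP over input, was 4.23, and its log10 p was -262. The larger PBS peak, at chr8:3682538-3683344, had a fold enrichment of 4.96 and a log10 p of -51.5. It consisted of a block of 471 bp and a block of 8 bp, joined across an intron. The OVA peak lay wholly inside the first of these blocks, and the shared 418 bp were 87.3% of the PBS peak's covered length. In its own list each of these peaks stood below the middle: a lower fold enrichment was found for 39.8% of OVA peaks and for 46.6% of PBS peaks. The second PBS peak, at chr8:3682212-3682331, was 120 bp wide, with a fold enrichment of 1.46, a log10 p of -2.5 and a log10 FDR of -1.68. No OVA peak overlapped it. It was among the least certain peaks of its list, of which 4.85% had a higher p. Fcer2a runs on the minus strand, and all 3 peaks were within its RefSeq position, chr8:3680280-3694174, and annotated by the authors as 3′ UTR. The authors assigned each of them to a transcript of the antisense gene Gm45231, while the peaks were called on Fcer2a. The edge of the Fcer2a position also met a peak of the neighbouring gene Trappc5 in both lists, where fold enrichment was 9.89 (OVA) and 5.6 (PBS).

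Kit, the receptor tyrosine kinase for stem cell factor, had a single peak, in the OVA list. It lay at chr5:75654837-75654928, was 92 bp wide and was annotated as 3′ UTR, 1794 bp before the end of the gene at 75656722. Its fold enrichment was 1.45, and 1.7% of the OVA peaks had a lower one. Its log10 p was -16.7, and 43.9% of the OVA peaks had a higher p, so the peak was shallow (low in fold enrichment) but not among the least certain. No PBS peak of any gene lay within the position of Kit. Shallow peaks often lacked a partner: of the OVA peaks with a fold enrichment under 2, 50.2% had no overlapping PBS peak, and of all OVA peaks, 19.4%. A missing PBS peak on Kit was thus common for an OVA peak of this fold enrichment, and no difference between the groups can be read from it.

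Kitl encodes stem cell factor, the ligand of Kit, and had the highest fold enrichments of the 10 genes. Each list held a long peak that spanned introns and a short peak nearer the end of the gene. The long OVA peak, at chr10:100088187-100097222, had 3 blocks of 34, 77 and 1206 bp, a fold enrichment of 12 and a log10 p of -3750. The long PBS peak, at chr10:100089222-100097163, had 2 blocks of 50 and 1147 bp, a fold enrichment of 10.8 and a log10 p of -6220. All 1197 bp that the PBS peak covered were also covered by the OVA peak, of which they made up 90.9%. The main block of both began at 100096017, and the blocks before it ended at 100089271 in both, so both lists placed the same junction inside the peak. In fold enrichment the long peak exceeded 76.8% of OVA peaks and 74.5% of PBS peaks. In p it was among the strongest, ahead of 99.7% (OVA) and 99.8% (PBS) of its list.

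The short Kitl peak was weak in both lists. In the OVA list it lay at chr10:100098654-100098715 with a fold enrichment of 1.59 and a log10 p of -5.71. In the PBS list it lay at chr10:100098684-100098774 with a fold enrichment of 1.92 and a log10 p of -10.5. The peaks shared 32 bp, which were 51.6% of the OVA peak and 35.2% of the PBS peak. They ended 1701 and 1642 bp before the end of the gene, and all 4 Kitl peaks were annotated as 3′ UTR.

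**Figure D1:**
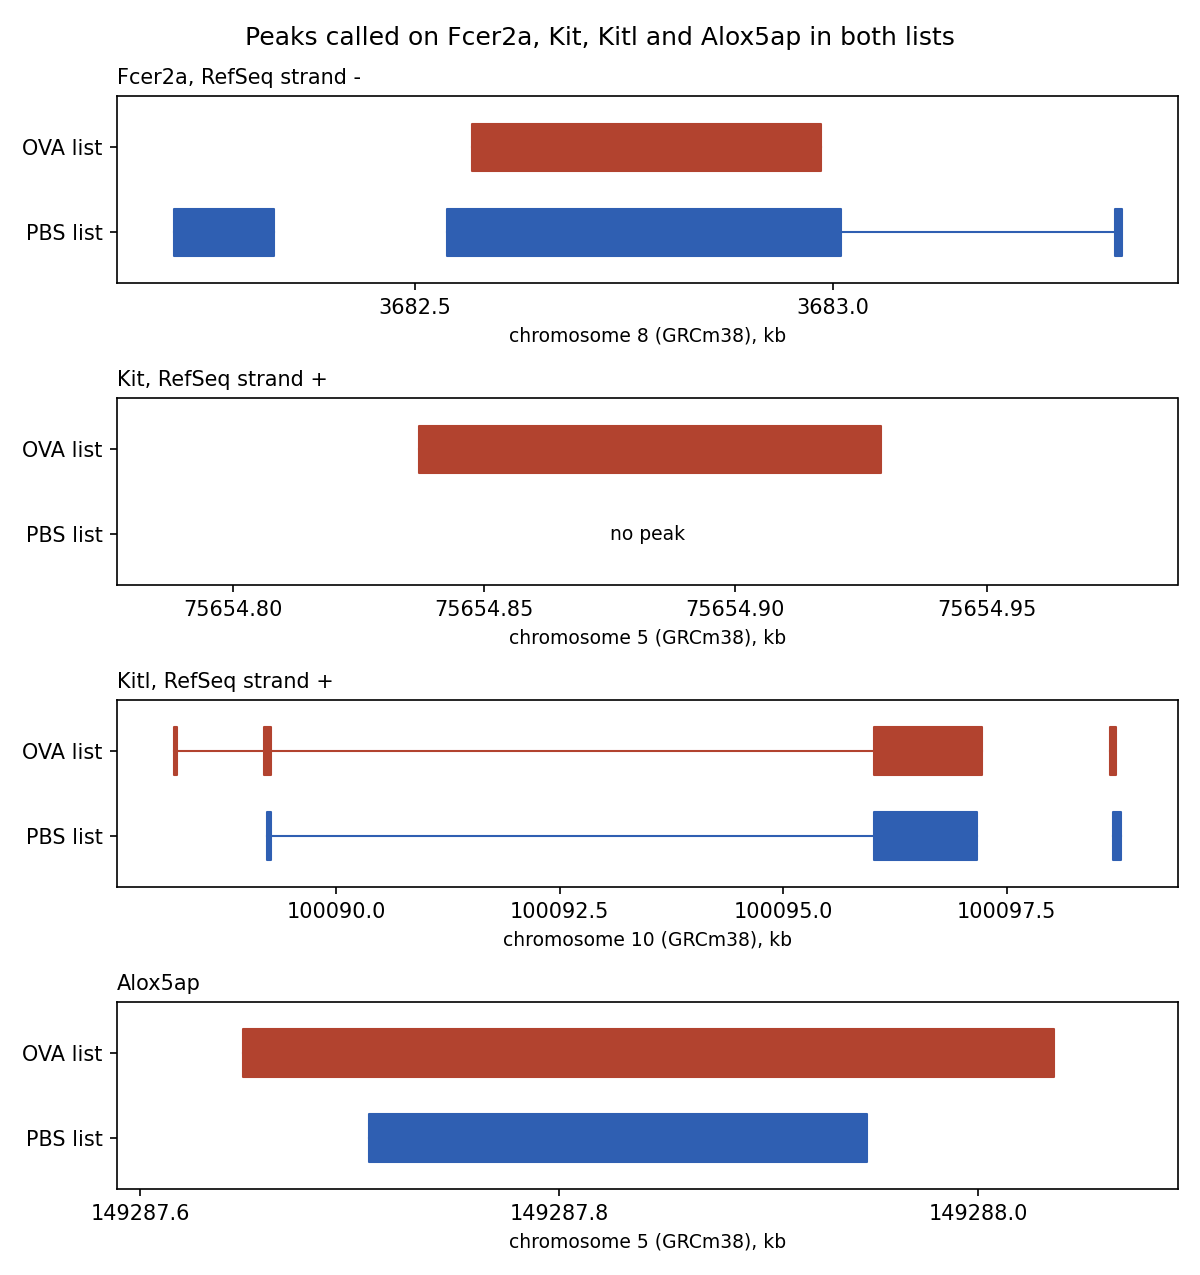
Positions of the peaks of Fcer2a, Kit, Kitl and Alox5ap in the OVA list (red) and the PBS list (blue), with the position on the chromosome in kb on the horizontal axis and a scale of its own for each gene. Filled boxes are the blocks of a peak and thin lines join the blocks of 1 peak; the main peaks of Fcer2a, Kitl and Alox5ap overlap between the lists, while Kit has no PBS peak.

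Cpa3, the mast cell carboxypeptidase stored in granules, had no peak in either list. Neither had Hdc, which makes histamine from histidine. The RefSeq positions of both, chr3:20215616-20242209 for Cpa3 and chr2:126593659-126624025 for Hdc, contained no peak of any gene.

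Leukotriene synthesis starts with 5-lipoxygenase, encoded by Alox5, and its activating protein, encoded by Alox5ap. Alox5, at chr6:116410071-116461178, had no peak in either list. Alox5ap had 1 peak in each. The OVA peak, at chr5:149287649-149288035, was 387 bp wide with a fold enrichment of 1.79 and a log10 p of -60.2. The PBS peak, at chr5:149287709-149287946, was 238 bp wide with a fold enrichment of 1.49 and a log10 p of -10.2. It lay wholly inside the OVA peak, of which it covered 61.5%. Both were shallow, above 6.52% (OVA) and 2.08% (PBS) of their lists in fold enrichment. They ended 118 and 207 bp before the end of the gene at 149288153. Both were called on Alox5ap but assigned to Gm19719, a gene whose transcript is annotated as antisense. The OVA list held a further peak in the same place, called on Gm19719 itself, at chr5:149287777-149287868 with a fold enrichment of 1.56. The strand of a peak was not used here, so signal from Alox5ap and from Gm19719 cannot be told apart.

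In each list, 5 of 5 peaks of these genes were annotated as 3′ UTR, beside 52.7% of all OVA peaks and 52.7% of all PBS peaks. The lists share most of these places, on 4 genes, so these are not separate counts. Shares differed between other gene lists. For the B cell genes, 11 of 11 OVA peaks and 9 of 9 PBS peaks were annotated as 3′ UTR. The counts were 9 of 10 and 11 of 11 for mast cell genes, and 3 of 3 and 1 of 1 for basophils. They were 22 of 28 and 17 of 20 for IgE receptor signalling, and 3 of 3 and 2 of 3 for eosinophils. Macrophages and neutrophils had 5 of 6 and 5 of 8. The leukotriene genes had 9 of 17 and 7 of 13, and the histamine genes 5 of 12 and 6 of 10. The lung genes had 9 of 15 in both. A 3′ UTR place of all or nearly all peaks was thus shared with some of these lists and not with others, and no test was made. None of the peaks of the 10 genes was assigned to a protein-coding transcript, beside 41.8% of all OVA peaks and 42.5% of all PBS peaks. The Kit and Kitl peaks were assigned to transcripts with a retained intron, and the Fcer2a and Alox5ap peaks to antisense transcripts. All 5 peaks of each list were called on the genes themselves, so the assigned transcript need not be the one that carries the peak. Over all peaks, 20.4% (OVA) and 20.1% (PBS) were assigned to transcripts with a retained intron, and 3.73% and 3.56% to antisense transcripts. The assigned gene differed from the called gene for 2 of 5 OVA peaks and 3 of 5 PBS peaks, beside 22.5% and 22.8% of all peaks. The authors' GO and KEGG terms follow the assigned gene, and the peaks of Fcer2a and Alox5ap carried none. None of the 10 genes was among the 37 OVA genes and 38 PBS genes that carried the KEGG term for Fc epsilon RI signalling. GO terms with mast cells in their name were attached to 60 OVA genes, Kit and Kitl among them, and to 56 PBS genes, Kitl among them.

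The median fold enrichment of the peaks of these genes was 1.79 for OVA and 1.92 for PBS, where the medians of all peaks were 5.59 and 5.44. The quartiles of all peaks were 2.91 and 11.4 for OVA and 2.86 and 10.9 for PBS. A fold enrichment of at least 2 was reached by 2 of 5 peaks in each list, the main Fcer2a peak and the long Kitl peak. Over all peaks, it was reached by 24538 of 27292 for OVA and by 23339 of 26102 for PBS. An overlapping peak in the other list was missing for 1 of 5 OVA peaks, that of Kit, and for 1 of 5 PBS peaks, the second one of Fcer2a. The shares over all peaks were 19.4% for OVA and 14.5% for PBS, and over the PBS peaks with a fold enrichment under 2, 28.6%. Both unpartnered peaks were thus shallow, and their number was near that of the lists as a whole.

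**Figure D2:**
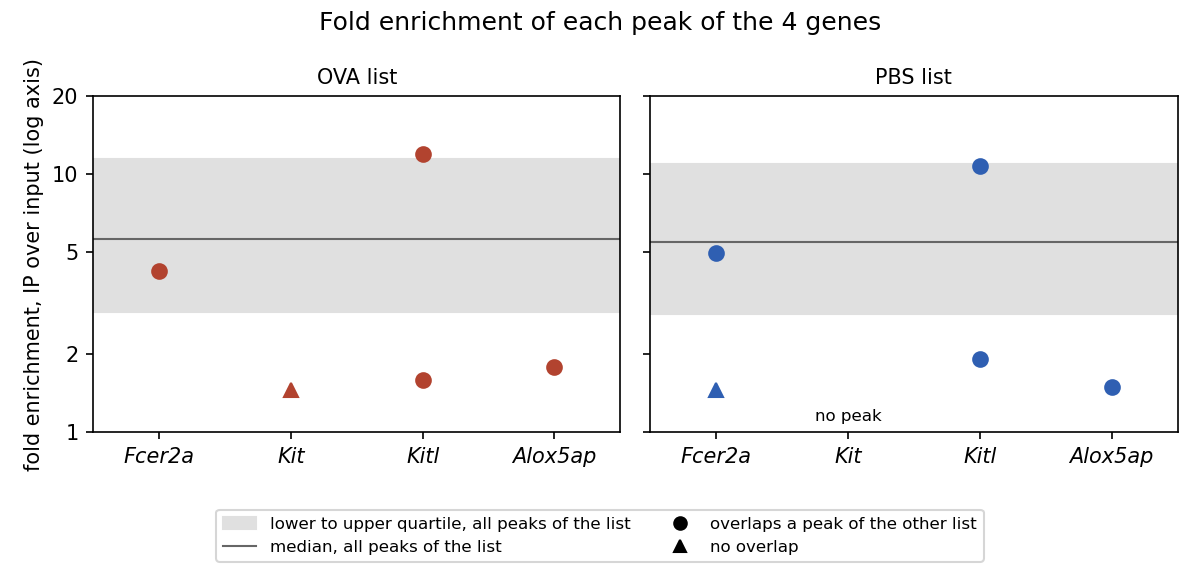
Fold enrichment of IP over input for each peak of Fcer2a, Kit, Kitl and Alox5ap, on a log axis, in the OVA list (left) and the PBS list (right). Circles are peaks that overlap a peak of the other list and triangles peaks that do not; the grey band runs from the lower to the upper quartile of all peaks of the list and the line is their median, and 3 of 5 peaks in each list lie below the band.

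Around these 10 genes, 74 others were followed in 9 lists of related genes and cell markers. Of the 49 with a peak in either list, 5 had it for OVA alone and 2 for PBS alone, beside 10.8% and 7.22% of all called genes with a peak. Of their peaks, 28 of 105 OVA peaks (26.7%) had no PBS partner, beside 19.4% of all OVA peaks, and 4 of 90 PBS peaks (4.44%) had no OVA partner, beside 14.5% of all PBS peaks. No test of these shares was made.

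Downstream of the receptor, kinases and adaptors pass its signal on. Of 16 genes of this signalling path, 12 had a peak in both lists and Lat, Lcp2, Plcg2 and Ptpn6 had none. The median fold enrichment of their peaks was 5.61 for OVA and 7.02 for PBS. No PBS partner was found for 8 of their 28 OVA peaks, and an OVA partner was missing for 0 of their 20 PBS peaks. The counts were 4 of 17 and 0 of 13 for the leukotriene genes, 5 of 12 and 0 of 10 for the histamine genes and 4 of 11 and 0 of 9 for the B cell genes. Among the leukotriene genes, 4 OVA peaks and 2 PBS peaks, all on Ltb4r2, overlap another peak of their own list, so some places are counted more than once there and in the totals over the 9 lists. The counts were 2 of 10 and 1 of 11 for the mast cell genes, 2 of 3 and 0 of 1 for basophils, 1 of 3 and 0 of 3 for eosinophils, 1 of 6 and 2 of 8 for macrophages and neutrophils, and 1 of 15 and 1 of 15 for the lung genes. Among the 16 signalling genes, the highest OVA value was 33.4, for Btk, a kinase that B cells and mast cells share. The highest PBS value of the signalling genes was 24.4, for Syk, the kinase recruited by the gamma chain. The lowest values of the signalling genes were on peaks assigned to Btk but called on the neighbouring gene Gla, at 1.28 (OVA) and 1.77 (PBS).

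Of 11 genes of leukotriene synthesis and leukotriene receptors, 8 had a peak in both lists, and Lta4h and Mgst2 had none. Pla2g4a, the phospholipase that releases arachidonic acid, had a peak in the OVA list and none in the PBS list, with a fold enrichment of 1.99, the lowest of these genes. The medians were 8.35 for OVA and 7.03 for PBS, each the value of a peak assigned to Ltc4s but called on Maml1. The highest OVA value was 30.5 for Ltb4r1, a receptor of leukotriene B4, and the highest PBS value was 13.8 for Ltb4r2, the other such receptor. Their log10 p was -207 and -3.88. The lowest PBS value was 2.27 for Dpep1. The peaks of Ltc4s, the leukotriene C4 synthase, were assigned to it but called on the neighbouring gene Maml1, so that 7 genes were called in both lists.

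Of 6 genes of histamine handling and histamine receptors, Aoc1, Hrh1 and Hrh2 had a peak in both lists and Hnmt had none. Slc18a2, a vesicle transporter of monoamines, and the receptor Hrh4 had a peak in the OVA list and none in the PBS list. Their fold enrichments were 2.05 and 12.3, with a log10 p of -1.87 and -3.35. The medians were 7.59 for OVA and 11.8 for PBS. The highest values were 38 (OVA, Hrh1) and 20.7 (PBS, Hrh2), with a log10 p of -26.6 and -6.13. The lowest PBS value was 3.95, also for Hrh2. No test of these differences was made.

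Cell markers were followed in the same way. Of 13 mast cell genes, Srgn, Hpgds, Gata2 and Mitf had a peak in both lists, and 8, most of the granule proteases among them, had none. Mcpt4, a mast cell chymase, had a peak in the OVA list and none in the PBS list, with a fold enrichment of 8.73 and a log10 p of -4.2. The highest values were those of Mitf, 14.9 for OVA and 42.8 for PBS, and the lowest those of Srgn, 1.65 and 1.58. The medians were 7.52 and 3.75. The Srgn peaks with the lowest values lay in different places, and neither overlapped a peak of the other list. The Srgn peaks that overlapped between the lists were assigned to Srgn but called on Kif1bp. The 4 genes with a peak in both lists are also active in other cells, and Mcpt1, Mcpt2, Cma1, Tpsb2, Tpsab1, Ctsg, Gata1 and Mrgprb2 had no peak in either list. Of 3 basophil genes, Cd200r3 had a peak in both lists, with a highest fold enrichment of 7.48 for OVA and of 11.4 for PBS, and Mcpt8 and Prss34 had none. The log10 p of these Cd200r3 peaks was -44.7 and -3.07.

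Fcer2a is also a marker of B cells. Of 6 other B cell genes, Ms4a1, Cd79b, Cd22 and Pax5 had a peak in both lists, and Cd79a had none. Cr2, a complement receptor of B cells, had peaks in the OVA list and none in the PBS list. Its lowest fold enrichment, 2.15, was the lowest OVA value of these genes. The highest OVA value was 39.3 for Pax5, and the highest PBS value, 30.1, was of a peak assigned to Cd79b but called on Scn4a. The lowest PBS value was 2.15 for Pax5, and the medians were 7.09 and 12.2.

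Of 5 eosinophil genes, Ccr3 and Il5ra had a peak in both lists, and Epx, Prg2 and Siglecf had none. Il5ra had the highest values, 21.8 for OVA and 52.3 for PBS, with a log10 p of -194 and -16.9. The lowest were 2.79, for Il5ra in the OVA list, and 6.17, for Ccr3 in the PBS list. The medians were 13 and 12.3. Of 7 macrophage and neutrophil genes, Csf1r and Csf3r had a peak in both lists, and Adgre1, Cd68 and Marco had none. S100a8 and S100a9, calcium-binding proteins of neutrophils, had a peak in the PBS list and none in the OVA list, at 2.15 and 2.59. Csf1r held both extremes of this list: 42.1, on a peak called on Pdgfrb, and 1.52 for OVA, and 19.9 and 1.22 for PBS. The medians were 3.29 and 4.15.

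Of 7 lung genes, 6 had a peak in both lists and Sftpc, a surfactant gene of alveolar cells, had none. The highest values were those of Foxj1, 15.8 for OVA, on a peak called on Rnf157, and 17.3 for PBS. The lowest were those of Ager, 1.36 and 1.27, and the medians were 2.13 and 2.42. These genes mark surfactant-producing, ciliated, secretory and endothelial cells, among others. The part of cell makeup in the peaks of the 10 genes was not tested.

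**Figure D3:**
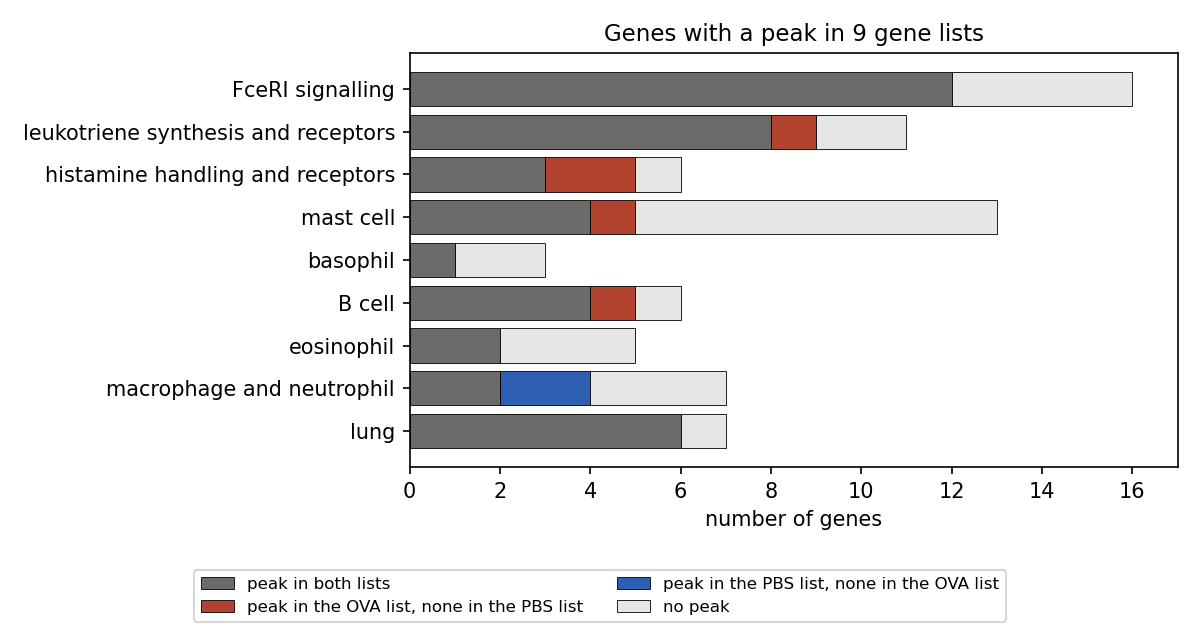
Number of genes with a peak in both lists, in the OVA list and not the PBS list, in the PBS list and not the OVA list, and in neither, for each of 9 gene lists, with the number of genes on the horizontal axis. The FceRI signalling list has 12 of 16 genes with a peak in both lists, and the mast cell list has 8 of 13 genes without a peak.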

How the data were processed

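Per the labels and the study's methods, the authors used FASTP for read cleaning, HISAT2 for alignment to Ensembl's mouse genome, exomePeak for peaks of IP against input, and ChIPseeker for annotation; versions of these tools are not given in the sources used here. Each group has 1 deposited list, and how its 3 mice were combined is not given. The deposited fold enrichment is a ratio of IP over input in a peak. The deposited scores are log10 values of p and FDR for each peak. Widths and block numbers are in bp and counts.

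Peaks were matched to genes by assigned gene or called identifier, and all 10 symbols had an Ensembl identifier. Of the peaks called on protein-coding RefSeq genes (GRCm38), 97.7% (OVA) and 97.8% (PBS) overlapped that gene's position. Peaks of both lists overlapped when their blocks shared at least 1 bp, ignoring strand; the overlap code was tested on simulated data. Fold enrichment was ranked within a list, and values of both lists are given side by side with no comparison. No test was made. The 10 genes and 9 gene lists were chosen with earlier results of these data known. Of the gene lists, genes with a peak in 1 peak list and those with the highest and lowest fold enrichment are named by rule; other genes of these lists and neighbouring genes were named after their values were seen. A further gene fixed for these lists is not reported here and is in none of their counts. Python 3.11.15, pandas 2.3.3 and numpy 2.4.6 were used.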

Additional observations from a re-analysis of the deposited data

How the results depend on the processing

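Of 52 recomputed values, 31 differed from the reported one: 26 were medians or were counts that differed by more than 1.5 times, and 5 were counts within that range. With a fold enrichment of at least 2, 2 of the 10 genes had an OVA peak and 2 a PBS peak (in place of 3), both lists held 2 peaks, 0 peaks in each lacked a partner, and the medians were 8.12 (OVA) and 7.88 (PBS). By assigned gene alone, 2 genes had an OVA peak and 1 a PBS peak, with 3 and 2 peaks, 0 PBS peaks without a partner and medians of 1.59 and 6.36. With only peaks assigned to protein-coding transcripts, 0 genes and 0 peaks were left in both lists, 0 lacked a partner, and there was no median. When 50% of both peaks had to overlap, 2 OVA and 2 PBS peaks lacked a partner, and when start and end had to be identical, 5 and 5. Requiring an FDR under 0.05 together with a fold enrichment of at least 2, an alternative chosen after seeing the data, left 0 and 0. The changed counts follow from stricter definitions, while the medians shifted with the peaks that each rule kept. By assigned gene alone, the median fell from 1.79 for OVA and rose from 1.92 for PBS. An FDR under 0.05 and called genes alone changed none of these values of the 10 genes, and overlap of spans, which bears on partners only, left 1 and 1 peaks without one. Of the genes of the 9 lists, 47 had an OVA peak and 44 a PBS peak; either threshold, on FDR or on fold enrichment, gave 46 and 44, and called genes alone, chosen after seeing the data, 46 and 43.

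No paired analysis was possible because the values used here are 1 combined list for each group, with none for single mice. The reads behind single peaks were not used here, so a missing peak is no evidence that a transcript lacks m6A.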
